A study of Mus musculus with 3 samples.

Results

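Lymphatic endothelial cells (LEC) of Peyer's patches (PP) from mice that overexpress *Nr2f2* in endothelium were described from single-cell RNA sequencing. LEC were the cells with at least 2 unique molecular identifiers (UMIs) of the endothelial genes *Pecam1*, *Cdh5*, *Egfl7*, *Emcn* and *Flt1* together and at least 4 UMIs of the lymphatic genes *Mmrn1*, *Reln* and *Prox1* together. By this rule 1035 of the 11466 cells kept in all 3 libraries were LEC. The EC-iCOUPOE replicate 1 library held 928 LEC, or 19.5% of its 4750 kept cells (95% Clopper-Pearson interval 18.4 to 20.7%). The EC-iCOUPOE replicate 2 library held 107, or 8.61% of 1243 (7.11 to 10.3%). The control library held 0 LEC among 5473 kept cells, which allows a share of up to 0.0548% (3 cells as the limit for a count of 0). LEC of the control genotype could therefore not be compared. Unless stated otherwise, the values below set LEC beside the blood endothelial cells (BEC) of the same library. BEC had at least 3 UMIs of the 5 endothelial genes and at most 1 UMI of the 3 lymphatic genes, and numbered 3617 in replicate 1, 966 in replicate 2 and 2603 in the control.

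The control mice are labelled WT with the strain C57BL/6. The EC-iCOUPOE mice are labelled CDH5(PAC)CreERT2;COUP-TFIIOE/OE. In these mice a tamoxifen-inducible Cre recombinase under the endothelial *Cdh5* promoter switches on COUP-TFII, the protein encoded by *Nr2f2*. Whether the recombinase acted in LEC was not measured. All mice were 6 to 10 weeks old, and cells were isolated 14 to 19 days after tamoxifen and sorted for endothelium, with males and females in one library. The labels give no number of mice per library, so the 2 EC-iCOUPOE libraries are the replicates, and the spread between them may be technical. The labels call the cells blood endothelial cells, and the authors removed lymphatic cells from their own analysis, so the LEC described here are cells that the deposited count tables still contain.

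LEC line the vessels that drain fluid, lipids and leukocytes from tissue. They arise largely from embryonic veins, where COUP-TFII and SOX18 switch on *Prox1*, the regulator that sets and maintains lymphatic identity, and PROX1 and COUP-TFII can bind each other. VEGFR3, encoded by *Flt4*, receives the lymphatic growth factor VEGF-C. In PP the lymphatics surround the follicles and carry lymphocytes out of the tissue, whereas lymphocytes enter through blood venules that display the mucosal addressin MAdCAM1.

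Few cells lay near the limit of 4 UMIs. Of the endothelial cells in replicate 1, 3636 held 0 or 1 UMI of the 3 lymphatic genes, 34 held 2 or 3, 37 held 4 or 5 and 891 held 6 or more. In replicate 2 the corresponding numbers were 996, 8, 17 and 90. The cells just outside the limit carried intermediate levels, with *Lyve1* at 864 and 1139 CPM (the UMIs of a gene in the summed cells, scaled to their total) in the cells with 2 or 3 UMIs against 1715 and 1558 CPM in the cells with 4 or 5. In the control, 2671 endothelial cells had 0 UMIs of the 3 genes, 15 had 1 and none had more.

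**Figure D1:**
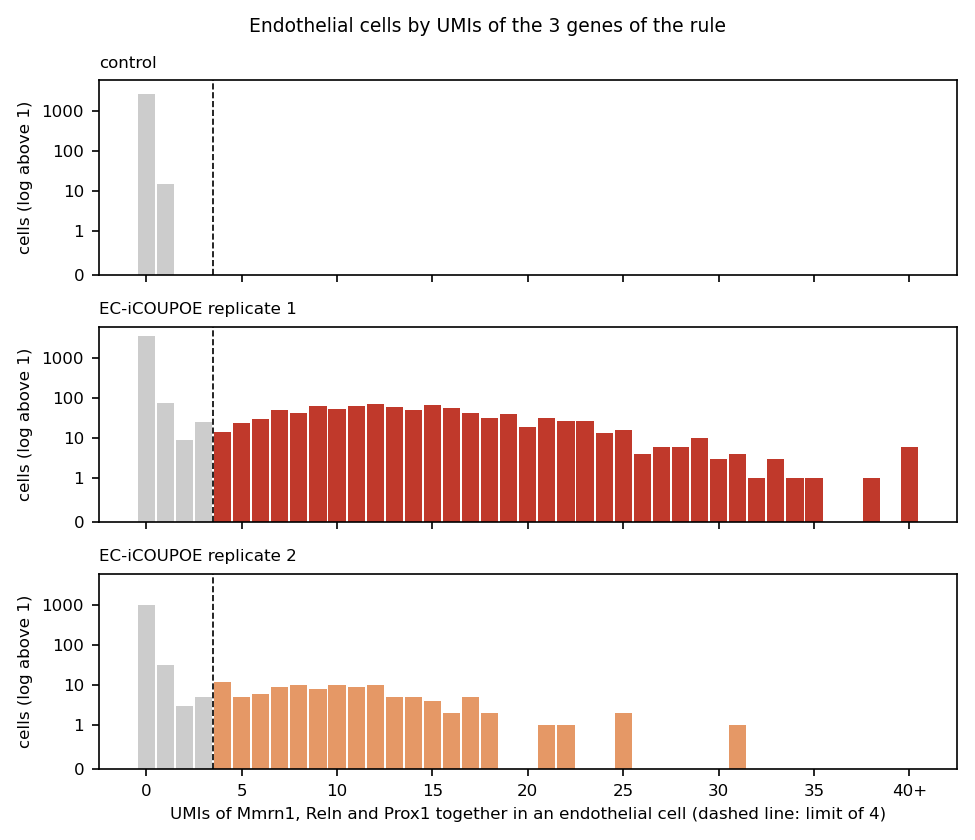
Number of endothelial cells (vertical axis, logarithmic above 1) by the UMIs of *Mmrn1*, *Reln* and *Prox1* together (horizontal axis), in each library. Coloured bars right of the dashed line are LEC, 928 in EC-iCOUPOE replicate 1 and 107 in replicate 2, and the control panel holds no cell right of the line.

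The control and EC-iCOUPOE libraries also differed in other cells. The control library held 2506 fibroblast-gated cells against 24 and 12 in the EC-iCOUPOE replicates, and whether the sort, the dissection or the genotype set the number of LEC in the control library was not tested. The median LEC held 2470 UMIs in replicate 1 and 2138 in replicate 2, and the median BEC 3234 and 2317. In total LEC gave 2598040 and 263478 UMIs, so that levels in replicate 2 rest on fewer UMIs. Replicate 2 and the control shared 12 cell barcodes, 3 of which were LEC in replicate 2, and replicate 1 shared none with either library.

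Some LEC also carried transcripts of blood endothelium. In 93 of the 928 LEC of replicate 1 (10.0%) and 7 of the 107 of replicate 2 (6.54%), the BEC markers *Plvap*, *Vwf*, *Ly6c1* and *Cd34* together reached 5 UMIs. These cells with a mixed profile were deeper than the other LEC, with a median of 4929 against 2381 UMIs in replicate 1 and 3558 against 2086 in replicate 2. Deeper cells reach a fixed limit of 5 UMIs more easily, so part of this difference may follow from the limit. In replicate 1 they held 721 of the 760 *Madcam1* UMIs, 92 of the 103 *Nkx2-3* UMIs and 786 of the 807 *Ly6a* UMIs of all LEC. Doublet calling marked 6 of 4750 and 6 of 1243 cells in the EC-iCOUPOE libraries, of which 5 and 3 were LEC, each of them a mixed cell. The other mixed cells were not marked, and whether they were doublets was not tested further. Levels in LEC include these cells unless stated otherwise, and for some genes that are high in BEC the level without them is given beside it.

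The label was checked on genes that the rule did not use. *Lyve1*, the hyaluronan receptor of lymphatic capillaries, lies on chromosome 7 of mm10 from 110850607 to 110863239 and was at 3248 CPM in LEC of replicate 1 and 2752 CPM in replicate 2. In BEC it was at 59.2 and 18.4 CPM. *Flt4* (chromosome 11, 49609263 to 49652739) was at 1156 and 562 CPM in LEC and at 33.6 and 51.2 CPM in BEC. A UMI of *Lyve1* or *Flt4* was found in 99.4% of LEC in replicate 1 and 97.2% in replicate 2, against 19.4 and 13.9% of BEC. In control BEC *Lyve1* was at 4.43 CPM and *Flt4* at 24.2 CPM, so the LEC of both libraries lay above the BEC of all 3 libraries for both markers.

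All 3 genes of the rule were present in 60.7% of LEC in replicate 1 and 35.5% in replicate 2, and the median LEC held 13 and 10 of their UMIs. *Mmrn1*, encoding the matrix glycoprotein multimerin 1, was at 3490 and 2850 CPM. *Reln*, encoding the secreted glycoprotein reelin, was at 1232 and 994 CPM, and *Prox1* was at 439 and 387 CPM. These values follow from the choice of the cells.

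UMIs were summed over the LEC and over the BEC of a library, and a gene was called higher or lower when the CPM differed at least 2-fold the same way in both EC-iCOUPOE libraries. Since gene expression chose the cells, and the cells of 1 library do not replicate a condition, no test was run. Intervals cover counting error only. Of 4652 genes with enough UMIs, 439 were called higher in LEC (9.44%) and 351 lower (7.55%), 17.0% in either direction. Without the mixed cells 439 and 360 of 4310 genes were called (10.2 and 8.35%, together 18.5%), of which 412 and 316 were also called with them, and none was called in opposite directions. The median log2 ratio of LEC to BEC over the tested genes was 0.11. TMM scaling in edgeR, which sets aside the genes with extreme ratios, moved it by -0.18, to -0.07, and gave 371 higher and 425 lower calls.

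The depth of the lowest ratios changed with the mixed cells. In replicate 1, 6 genes called lower were more than 16-fold below BEC with these cells and 104 without them. In replicate 2 the numbers were 51 and 68.

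**Figure D2:**
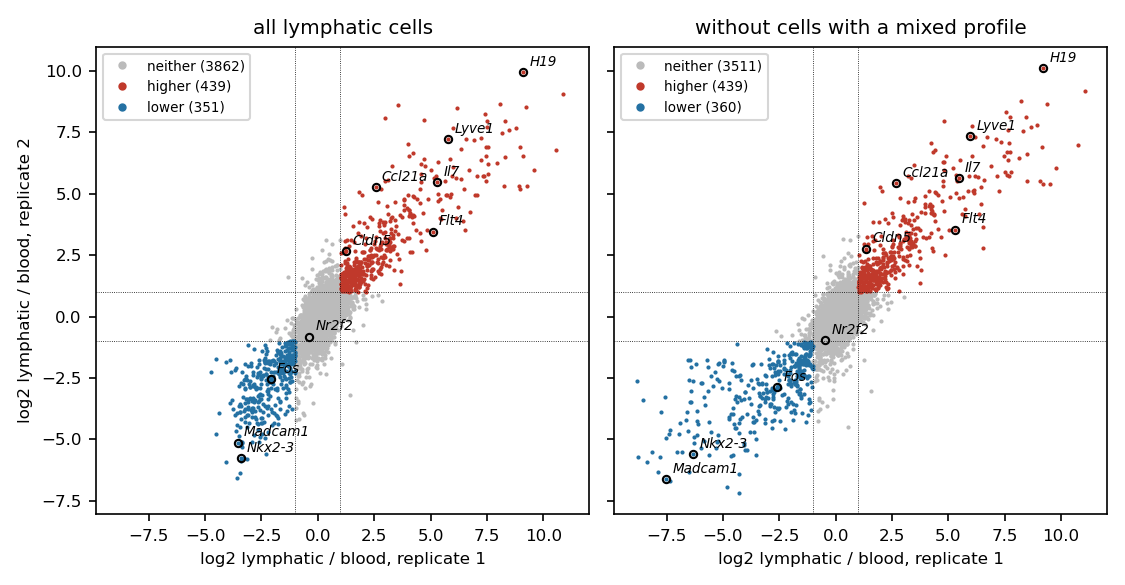
Log2 ratio of CPM in LEC to CPM in BEC for each tested gene in EC-iCOUPOE replicate 1 (horizontal axis) and replicate 2 (vertical axis), with all LEC (left) and without LEC of a mixed profile (right). Red points are the 439 genes called higher and blue points those called lower (351 left, 360 right), dotted lines mark 2-fold, and the blue points extend further to the left in the right panel.

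All 12 genes of a list of lymphatic identity genes outside the rule were called higher, with a median log2 ratio of 5.95. Like the counts for the lists below, this describes cells that were chosen on genes of the same profile, and nothing is read from it against the 9.44% of all tested genes called higher or the 7.55% called lower. *Pdpn*, encoding the mucin podoplanin, was at 171 and 258 CPM in LEC against 0.935 and 1.23 CPM in BEC. *Tbx1*, encoding a T-box transcription factor of lymphatic development, was at 192 and 167 CPM against 0.719 and 0.409 CPM. *Ccl21a*, the chemokine that draws CCR7-bearing dendritic cells and lymphocytes into lymphatics, was at 13827 and 37377 CPM against 2337 and 964 CPM.

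*Ccl21a* differed between the libraries in both cell types, and its reads can be shared with near-identical CCL21 genes, so its level is uncertain. *Mrc1*, encoding the mannose receptor of macrophages and LEC, had 270 and 13 UMIs in LEC and 0 in BEC of both libraries. With 3 UMIs as the floor in each library, it was at least 482-fold and 40.2-fold higher. *Nrp2*, the neuropilin that acts as co-receptor for VEGF-C, had the smallest difference, with 619 and 383 CPM against 215 and 141 CPM.

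**Figure D3:**
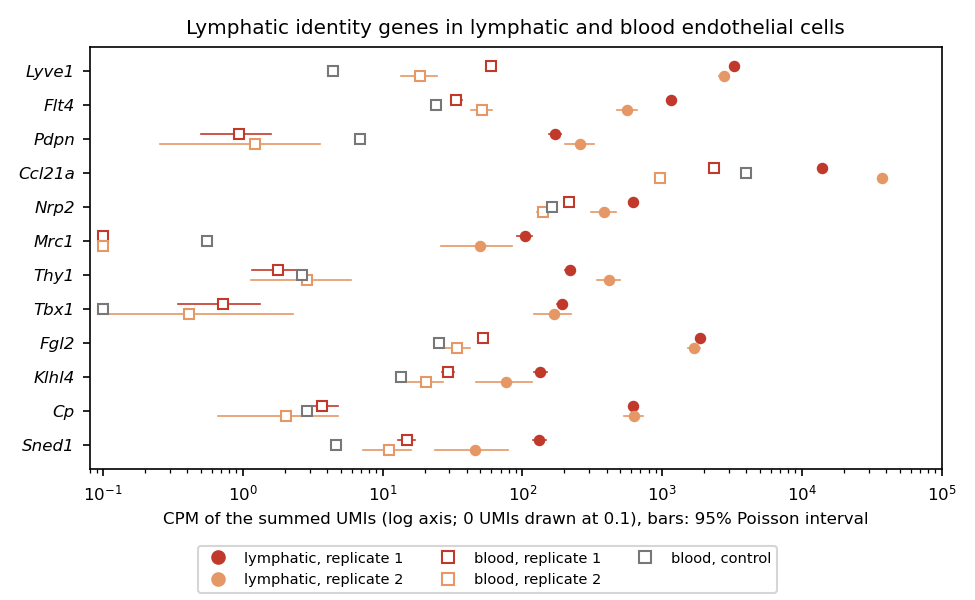
CPM on a logarithmic axis of 12 lymphatic identity genes in LEC (filled circles) and BEC (open squares) of EC-iCOUPOE replicates 1 and 2, with 95% Poisson intervals of the counts, and in BEC of the control (grey squares); *Mrc1* in BEC of both EC-iCOUPOE libraries and *Tbx1* in control BEC had 0 UMIs and are drawn at 0.1. For each gene both filled circles lie to the right of all squares.

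The 15 genes most raised in LEC relative to BEC by the smaller of their ratios were *H19*, *Slc45a3*, *Gpm6a*, *Tbx1*, *Pard6g*, *Dtx1*, *Scn3a*, *Pdpn*, *Lcn2*, *Ank2*, *Cp*, *Sema3d*, *Thy1*, *Prkcq* and *Slc9a9*. Genes of the rule and mitochondrial, ribosomal protein and sex-linked genes were left out of this ranking. Where BEC had no UMIs, as for *Dtx1* in replicate 2 and *Mrc1* in both libraries, the ratio is a lower bound. The true rank of such a gene could be higher. *H19*, an imprinted long noncoding RNA that is silent in most adult tissues, was at 278 CPM (95% interval 258 to 299) in replicate 1 and 402 CPM (329 to 487) in replicate 2, against 0.503 and 0.409 CPM in BEC. Its log2 ratio was 9.53 ± 0.59 (SD, n = 2). BEC values this low, here and for other genes of this ranking, rest on few UMIs, so the size of such ratios is uncertain. With each cell thinned to 1000 UMIs, 139 of the 928 LEC in replicate 1 and 11 of the 107 in replicate 2 had an *H19* UMI, a minority of cells at this depth.

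*Lcn2*, encoding the iron-siderophore binding protein lipocalin 2, was at 1302 and 1347 CPM against 7.12 and 5.32 CPM and was found in 65.9 and 70.1% of thinned LEC. *Cp*, encoding the copper-binding ferroxidase ceruloplasmin, was at 618 and 630 CPM against 3.67 and 2.05 CPM. *Pard6g*, a gene of the PAR polarity complex, was at 451 and 509 CPM against 1.44 and 2.05 CPM. For these 3 genes the LEC of both libraries lay close together, far above the BEC. *Dtx1*, encoding a ubiquitin ligase of the Notch pathway, had 752 and 67 UMIs in LEC against 9 and 0 in BEC. *Thy1*, a surface glycoprotein known from T cells and LEC, was at 221 and 414 CPM against 1.80 and 2.87 CPM. *Sema3d*, a secreted semaphorin, was at 207 and 190 CPM against 1.37 and 1.23 CPM.

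COUP-TFII, the overexpressed factor, was the next question. *Nr2f2* lies on chromosome 7 from 70351944 to 70366735. It was at 1281 CPM (95% interval 1237 to 1325) in LEC of replicate 1 and 649 CPM (555 to 754) in LEC of replicate 2, against 1681 CPM (1660 to 1703) and 1147 CPM (1105 to 1190) in BEC. The log2 ratio of LEC to BEC was -0.39 and -0.82 (mean -0.61 ± 0.30, SD, n = 2), so *Nr2f2* was not called, and without the mixed cells it was -0.48 and -0.96. Control BEC were at 120 CPM (113 to 127), below the LEC of both EC-iCOUPOE libraries.

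BEC were also split by gates, with at least 3 UMIs of *Ackr1*, *Selp* and *Vwf* for venous-gated cells and, among the others, at least 2 UMIs of *Gkn3*, *Sema3g*, *Bmx* and *Fbln5* for arterial-gated cells. In venous-gated BEC *Nr2f2* was at 1656 and 1394 CPM in the EC-iCOUPOE libraries and 178 CPM in the control. In arterial-gated BEC it was at 1532 and 828 CPM and in the control at 56.8 CPM. LEC of both libraries were thus below their venous-gated and arterial-gated cells. With cells thinned to 1000 UMIs, 69.4% of LEC (95% interval 66.3 to 72.3%) in replicate 1 and 54.2% (44.3 to 63.9%) in replicate 2 had an *Nr2f2* UMI, against 74.9 and 61.2% of BEC. In leukocyte-gated cells, which should lack the gene, 3 of 20 cells of replicate 1 and 0 of 3 of replicate 2 had one, at median depths of 3685 and 6351 UMIs. LEC express *Nr2f2* without any transgene, and a UMI does not show which copy it came from, so with 0 control LEC the transgene and the endogenous gene cannot be told apart.

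Cells of the 2 libraries differed in *Nr2f2* in the same order, replicate 1 above replicate 2, in LEC, BEC, venous-gated and arterial-gated cells. The variance of thinned *Nr2f2* counts over their mean, which is 1 for counting noise alone, was 1.25 and 1.07 in LEC and 1.68 and 1.496 in BEC. Of the LEC, 30.6% in replicate 1 and 45.8% in replicate 2 had 0 *Nr2f2* UMIs after thinning, and 35.1 and 20.6% had 2 or more.

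*Nkx2-3*, the intestinal homeodomain factor that acts with COUP-TFII on *Madcam1*, lies on chromosome 19 from 43612325 to 43615892. It was at 39.6 CPM (103 UMIs) and 7.59 CPM (2 UMIs) in LEC of the libraries against 425 and 417 CPM in BEC. With the mixed cells left out 11 and 2 UMIs remained, 5.32 and 8.55 CPM, with log2 ratios of -6.32 and -5.61. *Nkx2-3* UMIs were found in 1.29 and 1.87% of thinned LEC and in 33.0 and 33.9% of BEC. Fibroblast-gated cells had them in 16.7% of 24 cells and 25.0% of 12, so LEC of both libraries lay below both other cell types.

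*Madcam1* (chromosome 10, 79664559 to 79668537) was at 293 CPM (760 UMIs) and 83.5 CPM (22 UMIs) in LEC and at 3435 and 2939 CPM in BEC. Without the mixed cells it was at 18.9 CPM (13.4 to 25.8) and 29.9 CPM (12.0 to 61.7), and the log2 ratios went from -3.55 and -5.14 to -7.51 and -6.62. The share of thinned LEC with a *Madcam1* UMI was 5.06% in replicate 1 and 0.599% without the mixed cells, and in replicate 2 it was 8.41% and, without them, 5 of 100 cells. Among fibroblast-gated cells of replicate 1, 0 of 24 had one after thinning, which allows a share of up to 12.5%. Arterial-gated BEC of the EC-iCOUPOE libraries had 1450 and 1445 CPM of *Madcam1*, and in the control 912 CPM.

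*Madcam1* was also compared within LEC by the number of *Nr2f2* UMIs after thinning. Among LEC other than the mixed cells, the 254 LEC of replicate 1 with 0 *Nr2f2* UMIs held 0 *Madcam1* UMIs, the 296 with 1 held 5 and the 285 with 2 or more held 7. In replicate 2 the 48, 34 and 18 cells held 2, 3 and 0. These counts are too few to give an order. In replicate 1 *Prox1* was at 461, 547 and 460 CPM with 0, 1 and 2 or more *Nr2f2* UMIs, and *Lyve1* at 3972, 3659 and 3628 CPM, with overlapping counting intervals for both. *Ccl21a* was at 14898, 14399 and 14526 CPM there. In replicate 2, where 18 cells had 2 or more, *Prox1* was at 396, 324 and 556 CPM and *Lyve1* at 3729, 3294 and 2333 CPM, and *Ccl21a* was at 41479, 42059 and 27111 CPM. *Nrp2* was at 705, 625 and 751 CPM in replicate 1 and at 333, 382 and 944 CPM in replicate 2. Between the cells with 0 and with 2 or more *Nr2f2* UMIs, the counting intervals of *Lyve1*, *Ccl21a* and *Nrp2* did not overlap in replicate 2 but did in replicate 1. Such intervals leave out the spread between cells. For *Ccl21a* the variance of thinned counts over their mean was 18.3 in these LEC of replicate 2. No difference is therefore read from the 18 cells.

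**Figure D4:**
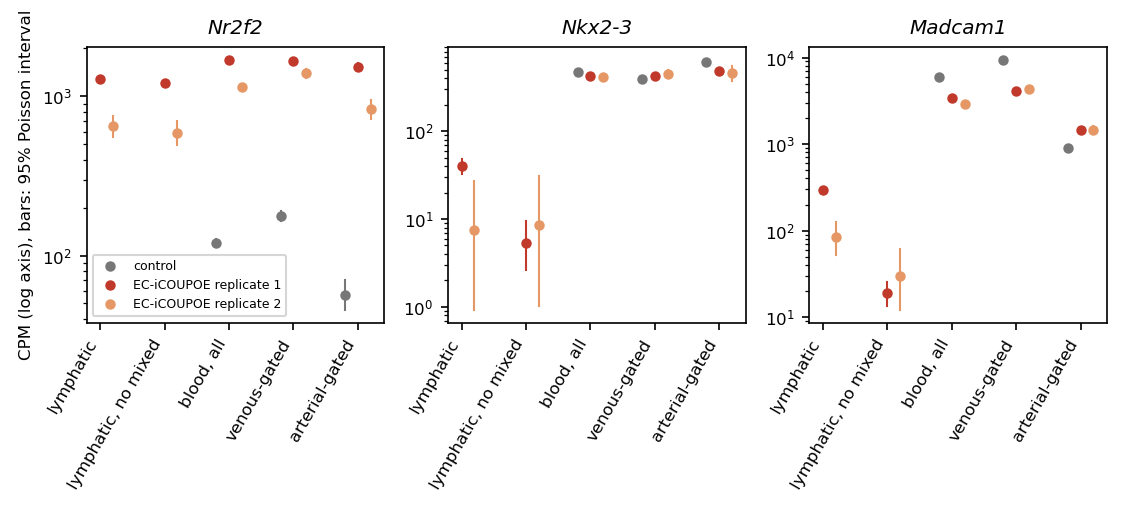
CPM on a logarithmic axis, with 95% Poisson intervals of the counts, of *Nr2f2*, *Nkx2-3* and *Madcam1* in LEC, in LEC without those of a mixed profile, and in all, venous-gated and arterial-gated BEC of the control (grey), EC-iCOUPOE replicate 1 (red) and replicate 2 (orange). *Nr2f2* in LEC lies above control BEC, whereas *Nkx2-3* and *Madcam1* in LEC lie below the BEC of each library.

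Of the 15 genes on the addressin list 8 passed the count minimum, of which 6 were called lower, 0 higher, with a median log2 ratio of -3.22. All 8 were lower without the mixed cells, with a median of -4.64, but *Cd34*, 1 of the 8, helped define those cells, and leaving out cells rich in blood endothelial transcripts lowers such genes by construction. *Ackr1*, the atypical chemokine receptor of venules, was at 52.3 and 15.2 CPM in LEC (6.28 and 8.55 CPM without the mixed cells) and 441 and 246 CPM in BEC. *Selp*, encoding P-selectin, was at 31.2 and 11.4 CPM (13.5 and 8.55 CPM without them) against 165 and 223 CPM. *Vcam1* was at 45.4 and 26.6 CPM against 51.9 and 44.2 CPM and was not called, but without the mixed cells it was at 17.9 and 8.55 CPM and was called lower. *St6gal1*, encoding the sialyltransferase of the B cell addressin, had 4 UMIs in LEC of replicate 1, each in a mixed cell, and 0 in replicate 2 against 326 and 67 in BEC, and did not reach the count minimum. *Fut7*, encoding the fucosyltransferase of L-selectin ligands, had 16 and 0 UMIs, 1 and 0 outside the mixed cells, against 873 and 9 and did not reach it either, nor did *Nr2f1*, encoding the relative COUP-TFI, with 76 and 1 UMIs against 52 and 2.

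Sequence around the start sites is shown for 2 genes that differ in LEC, *Madcam1* (lower) and *Pdpn* (higher), since COUP-TFII binds nuclear receptor motifs such as AGGTCA and GGGTCA. Each stretch runs from 250 bases before to 50 after the start in the RefSeq table for GRCm38.p6, 5′ to 3′ on the strand of the gene, and capitals mark 1 of these motifs on either strand. *Madcam1* lies at chr10:79664309-79664608 on the plus strand and *Pdpn* at chr4:143299515-143299814 on the minus strand.
Madcam1: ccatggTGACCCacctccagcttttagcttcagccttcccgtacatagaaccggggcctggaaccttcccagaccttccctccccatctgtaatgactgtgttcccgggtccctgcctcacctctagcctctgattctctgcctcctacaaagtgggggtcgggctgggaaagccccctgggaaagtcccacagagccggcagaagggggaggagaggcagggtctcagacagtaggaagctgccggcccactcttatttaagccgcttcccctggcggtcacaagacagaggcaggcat
Pdpn: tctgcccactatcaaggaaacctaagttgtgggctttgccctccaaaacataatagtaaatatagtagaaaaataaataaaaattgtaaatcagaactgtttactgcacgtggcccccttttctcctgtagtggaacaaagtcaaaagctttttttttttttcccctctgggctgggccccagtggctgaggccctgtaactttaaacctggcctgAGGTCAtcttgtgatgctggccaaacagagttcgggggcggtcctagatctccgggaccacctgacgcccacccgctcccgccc
The *Madcam1* stretch held GGGTCA once, read on the opposite strand from base 7, and the *Pdpn* stretch held AGGTCA once from base 217. Neither held TNAAGTG, the core bound by NKX2 factors, which says only that these letters are not in these windows. The authors describe an NKX2-3 site in an element of the *Madcam1* promoter. By the limits of their reporter constructs, that element appears to lie upstream of this window. Of the 12 genes with a stretch, *Madcam1*, *Pdpn*, *Flt4* and *Mmrn1* held a match to AGGTCA or GGGTCA, and the other 8, among them *Nr2f2*, *Prox1*, *Reln*, *Ccl21a* and *Nkx2-3*, held none. Sequence further upstream was not searched.

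Such matches were common. On either strand AGGTCA was found in 16.3%, GGGTCA in 13.7% and TNAAGTG in 11.5% of all 32851 promoter stretches. Of the 439 genes called higher 325 matched the table, and 11.2, 14.8 and 9.89% of their stretches held the 3 motifs. For the 351 genes called lower 257 matched, with 12.1, 15.4 and 11.5%. For all tested genes the shares were 12.5, 14.5 and 8.69%. The letters are a description of these windows and not of binding.

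Transcription factors known from lymphatic development differed in both directions. Of a list of 22, 15 passed the count minimum, of which 4 were called higher and 3 lower, with a median log2 ratio of -0.61. *Maf*, encoding a bZIP factor, was at 536 and 964 CPM against 6.61 and 8.60 CPM in BEC. *Foxc2* and *Nfatc1*, which act together in lymphatic valves, were at 43.5 and 49.3 CPM and at 97.4 and 72.1 CPM, against 8.41 and 15.2 CPM and 18.5 and 19.6 CPM. Among SoxF factors *Sox18*, the partner of COUP-TFII on *Prox1*, was at 232 and 323 CPM in LEC and 250 and 343 CPM in BEC, with log2 ratios of -0.11 and -0.09. *Sox17*, which marks arterial endothelium, was at 21.2 and 15.2 CPM (1.45 and 4.28 CPM without the mixed cells) against 236 and 445 CPM and was called lower, as was *Sox7* with log2 ratios of -1.25 and -2.19. *Hey1*, a Notch target and repressor, had 73 and 7 UMIs (28.1 and 26.6 CPM) against 29.8 and 59.4 CPM and was not called. *Klf2*, a factor induced by blood flow, was at 754 and 1104 CPM against 1967 and 2865 CPM.

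VEGF receptors and ligands were split. Of 17 listed genes, 1 of them (*Flt1*) part of the rule, 10 passed the count minimum, with 4 higher, 3 lower and a median log2 ratio of 0.37. The receptors *Flt4* and *Nrp2* were higher, with mean log2 ratios of 4.28 ± 1.16 and 1.48 ± 0.06 (SD, n = 2). *Kdr*, encoding VEGFR2, was at 652 and 490 CPM against 417 and 425 CPM and was not called. *Nrp1*, the neuropilin of VEGF-A in blood vessels, was at 28.1 and 19.0 CPM (4.35 and 0 CPM without the mixed cells) against 212 and 255 CPM. Among ligands *Angpt2*, encoding angiopoietin-2, was at 60.8 and 68.3 CPM against 6.40 and 9.82 CPM, and *Pgf* at 33.5 and 68.3 CPM against 10.4 and 13.1 CPM. *Vegfc* itself went the other way, at 9.24 and 11.4 CPM in LEC against 87.7 and 88.4 CPM in BEC, with 24 and 3 UMIs in LEC, of which 8 and 1 lay outside the mixed cells. The angiopoietin receptor gene *Tek* was at 115 and 60.7 CPM against 172 and 193 CPM and, like *Tie1*, was not called.

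LEC transcribed several secreted factors that were low in BEC of the same libraries. Of 26 genes for secreted and matrix proteins 17 passed the count minimum, of which 6 were higher and 6 lower, with a median log2 ratio of 0.69. *Rspo3*, encoding an R-spondin that amplifies WNT signals and is known to support intestinal stem cells, was at 273 CPM (254 to 294) and 175 CPM (128 to 233) in LEC against 4.75 and 2.05 CPM in BEC. It was found in 24.6 and 21.5% of thinned LEC and in 0.415 and 0.311% of BEC. *Wnt2*, a WNT ligand, was at 143 and 194 CPM against 0.288 and 1.64 CPM, and was found in 139 of 928 and 19 of 107 thinned LEC. *Timp2* and *Lama4*, encoding a metalloproteinase inhibitor and a laminin chain, were higher with mean log2 ratios of 3.19 and 2.28.

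The lower members included *Apoe*, encoding apolipoprotein E, at 251 and 26.6 CPM (112 and 17.1 CPM without the mixed cells) against 2202 and 1478 CPM, and *Igfbp7*, an IGF-binding protein of blood vessels, at 1246 and 1218 CPM (806 and 834 CPM without them) against 5571 and 7527 CPM. *Igfbp3*, *Fbln2*, *Fbln5* and *Ecm1* were also called lower. The same 6 and 6 genes were called without the mixed cells.

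Of 18 listed genes of lymphatic capillaries and leukocyte entry 12 passed the count minimum, with 6 higher, 2 lower and a median log2 ratio of 2.36. *Il7*, encoding the survival cytokine of lymphocytes, was at 149 CPM (134 to 165) and 72.1 CPM (43.4 to 113) against 3.81 and 1.64 CPM. *Il33*, an alarmin stored in nuclei, was at 448 and 391 CPM against 18.5 and 6.96 CPM. *Ackr2*, a receptor that scavenges inflammatory chemokines, was at 171 and 106 CPM against 6.47 and 0.409 CPM, with 1 UMI in BEC of replicate 2. The axon guidance ligand *Sema3a* had 141 and 10 UMIs in LEC and 0 in BEC of replicate 2, and without the mixed cells it no longer reached the count minimum. *Cxcl12* and *Icam1* were called lower, with mean log2 ratios of -1.73 and -1.92.

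Genes of collecting vessels and valves were present as well. Of 17 listed 13 passed the count minimum, with 7 higher, 1 lower and a median log2 ratio of 1.69. *Cldn11*, a claudin found in lymphatic valves, was at 77.4 and 129 CPM against 1.94 and 4.09 CPM. *Itga9*, the integrin needed for valve leaflets, was at 115 and 68.3 CPM against 22.6 and 11.9 CPM, and *Fn1*, encoding fibronectin, at 322 and 163 CPM against 11.1 and 14.3 CPM. The connexin gene *Gja4* was higher, at 393 and 528 CPM in LEC against 121 and 165 CPM in BEC, and *Gja1* was not called. *Mgp* was lower.

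LEC other than the mixed cells were also grouped by the UMIs of *Foxc2*, *Cldn11*, *Itga9* and *Gja4* together. *Gja4*, which was also present in BEC, had the highest CPM of the 4 in LEC of both libraries. It therefore weighs most in these classes. In replicate 1, 468 LEC had 0 UMIs of the 4 genes after thinning, 255 had 1 and 112 had 2 or more. *Lyve1* was at 3731, 3839 and 3580 CPM in these classes, with overlapping counting intervals. *Ccl21a* was at 13618 CPM (13285 to 13956), 15447 CPM (14968 to 15937) and 16732 CPM (15983 to 17507). *Pdpn* was at 207 CPM (168 to 253), 145 CPM (102 to 200) and 89.3 CPM (42.8 to 164). In replicate 2 the classes held 50, 39 and 11 cells, with *Lyve1* at 3460, 3385 and 2545 CPM and *Ccl21a* at 36560, 42718 and 37727 CPM. *Pdpn* was at 220, 436 and 0 CPM in these classes, so neither the order of *Ccl21a* nor that of *Pdpn* in replicate 1 was found there. *Cldn5*, picked from the genes compared between these classes after its values were seen, was at 1338 CPM (1235 to 1447), 1447 CPM (1303 to 1603) and 1973 CPM (1722 to 2251) in replicate 1. In replicate 2 it was at 1380 CPM (1074 to 1746), 2000.0 CPM (1581 to 2496) and 4818 CPM (3609 to 6302), the same order, with the intervals of the end classes apart in both libraries. These intervals cover counting error only. The variance of thinned *Cldn5* counts over their mean was 1.69 and 3.0 in these LEC, above the 1 of counting noise.

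Genes named for lymph node sinus LEC were found in part. Of 18 listed 9 passed the count minimum, with 4 higher, 2 lower and a median log2 ratio of 0.83. *Itih5*, *Stab1*, *Kcnj8* and *Mrc1* were higher, with *Stab1*, a scavenger receptor, at 697 and 539 CPM against 76.9 and 72.5 CPM. *Bmp2* and *Madcam1* were lower, and *Ackr3*, *Cd36* and *Mfge8* were not called. Without the mixed cells *Cd36* was called lower as well. *Ptx3*, encoding a soluble pattern receptor, had 76 and 4 UMIs in LEC and 0 in BEC of both libraries, and *Ackr4*, which scavenges CCL21, had 63 and 3 against 8 and 0. Both were below the count minimum. *Marco* had 0 UMIs in LEC of both libraries, a floor of 3 UMIs each.

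Of 18 junction genes 15 passed the count minimum, with 3 higher, 4 lower and a median log2 ratio of 0.25. *Cldn5*, the main endothelial claudin, was at 1418 and 2171 CPM against 593 and 341 CPM, and *Cldn11* was higher as given above. *Cavin2*, a caveolar coat gene, was at 2338 and 2330 CPM against 486 and 479 CPM, with log2 ratios of 2.27 and 2.28. *Esam*, *Jam2* and *Jam3* were lower, with *Jam2* at 19.6 and 19.0 CPM (0.967 and 4.28 CPM without the mixed cells) against 274 and 198 CPM, and *F11r* was not called. *Plvap*, which forms the diaphragms of fenestrae, was at 450 and 300 CPM against 4206 and 4137 CPM and is one of the markers that define the mixed cells.

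Of 17 genes of lipid handling 12 passed the count minimum, with 2 higher and 4 lower and a median log2 ratio of -0.18. *Lpl*, encoding lipoprotein lipase, was at 94.7 and 60.7 CPM against 5.03 and 2.05 CPM, and *Gpihbp1*, which anchors that enzyme on capillaries, at 226 and 501 CPM against 60.3 and 108 CPM. The fatty acid binding genes *Fabp4* and *Fabp5* were lower, with *Fabp4* at 1619 and 903 CPM (904 and 650 CPM without the mixed cells) against 9219 and 6086 CPM. *Scarb1* and *Apoe* were lower as well.

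Of 16 immediate early genes, which also respond to tissue dissociation, 13 were called lower and 0 higher, with a median log2 ratio of -2.20, beside 7.55% of all tested genes called lower. *Fos* was at 658 and 831 CPM against 2809 and 4912 CPM, and *Junb* at 488 and 854 CPM against 2073 and 4112 CPM. The same 13 genes were called without the mixed cells, with a median of -2.59. A *Fos* UMI was found in 16.8 and 29.9% of thinned LEC, in 62.5 and 86.6% of BEC and in 87.5 and 91.7% of fibroblast-gated cells. *Hspa1b*, *Hsp90aa1* and *Dusp1* were not called. Whether the LEC differed in handling or in the tissue was not tested.

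Of 15 genes of antigen presentation 9 passed the count minimum with a median log2 ratio of 0.15, and 1 was called, beside 17.0% of all tested genes. It was *H2-Ab1*, an MHC class II gene, at 11.9 and 60.7 CPM (31 and 16 UMIs) against 4.53 and 8.19 CPM. The class I genes *H2-D1*, *H2-K1* and *B2m* were not called, with *H2-D1* at 2884 and 3496 CPM against 2883 and 2691 CPM. Of 18 interferon response genes 16 passed, with *Gbp2* higher and *Cxcl10*, *Irf1* and *Socs1* lower and a median of -0.72. *Cxcl10*, an inflammatory chemokine, was at 65.8 and 22.8 CPM (31.9 and 8.55 CPM without the mixed cells) against 629 and 1242 CPM. *Gbp2* lay near the limit at log2 ratios of 1.06 and 1.11 and was not called after TMM scaling or thinning. Of 12 cell cycle genes 1 passed the count minimum, *Pcna*, and was not called.

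**Figure D5:**
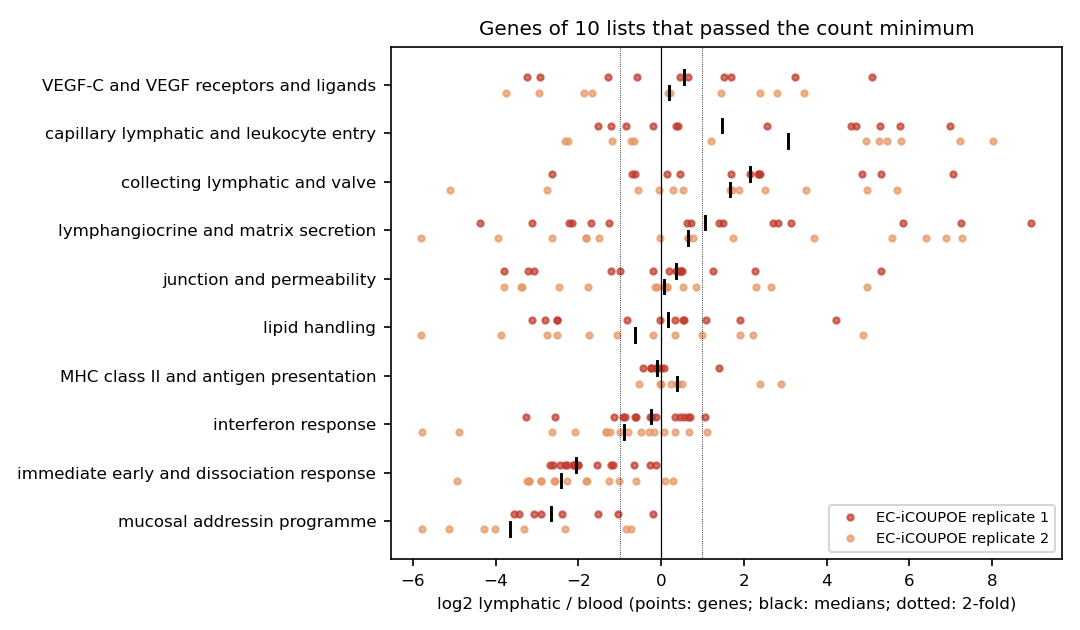
Log2 ratio of CPM in LEC to CPM in BEC (horizontal axis) for the genes of 10 lists that passed the count minimum, in EC-iCOUPOE replicate 1 (red) and replicate 2 (orange), with black bars at the medians and dotted lines at 2-fold. Medians of the immediate early list lie near -2 and those of the addressin list below -2.5 in both libraries, while those of the antigen presentation list lie near 0.

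The 15 genes most reduced in LEC relative to BEC by the smaller of their ratios were *Krt19*, *Rapgef4*, *Ecm1*, *Enpp6*, *Myof*, *AU021092*, *Tmem255b*, *Tcim*, *Amigo2*, *Madcam1*, *Mal*, *Entpd1*, *Sox17*, *Aplnr* and *Atp8b1*. Left out were the same groups of genes as for the most raised. Where LEC had no UMIs, as for *Entpd1* in replicate 2, the ratio is a bound and the rank is uncertain. *Krt19*, encoding a keratin, had 14 and 1 UMIs in LEC (5.39 and 3.80 CPM) and 0 without the mixed cells, against 125 and 106 CPM in BEC. Control BEC had 0.443 CPM of *Krt19* (4 UMIs), so it was low in LEC and control BEC and high in EC-iCOUPOE BEC. *Krt19* is also an epithelial marker. With *Krt19* itself counted, the epithelial markers summed to 133 and 299 CPM in BEC of the EC-iCOUPOE libraries. *Krt19* gave 1734 of the 1849 UMIs of this sum in replicate 1 and 258 of 731 in replicate 2. The part of epithelial transcripts in this contrast was not tested. *Enpp6*, encoding a choline phosphodiesterase, had 9 and 1 UMIs, and 0 without the mixed cells, against 46.3 and 51.6 CPM in EC-iCOUPOE BEC and 6.32 CPM in control BEC. *Ly6a*, on the list of blood endothelial genes, was at 311 and 186 CPM in LEC, and at 10.2 and 68.4 CPM without the mixed cells, against 3383 and 4168 CPM in BEC and 474 CPM in control BEC. The BEC of the EC-iCOUPOE libraries enter both of these contrasts, and the control is 1 library.

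Other genes of this group were present in control BEC as well. *Aplnr*, encoding the apelin receptor of venous endothelium, was at 35.4 and 3.80 CPM in LEC against 393 and 314 CPM in BEC and 176 CPM in control BEC. In replicate 1, 87 of its 92 UMIs lay in the mixed cells, and the other LEC were at 2.42 and 0 CPM. *Entpd1*, encoding the ATP-degrading enzyme CD39, had 49 and 0 UMIs in LEC, at least 12.5-fold lower than BEC in replicate 2, where BEC were at 142 CPM, and 5 and 0 UMIs lay outside the mixed cells. Of 28 genes of blood endothelial identity 25 passed the count minimum, 13 lower and 3 higher, with a median log2 ratio of -1.49. The 3 higher genes were *Notch1*, a Notch receptor, *Unc5b*, a netrin receptor known from arteries and capillaries, at 179 and 167 CPM against 7.62 and 15.97 CPM, and *Gpihbp1*.

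Markers of other cell types were summed in LEC and BEC. The 12 leukocyte markers summed to 38 UMIs (14.6 CPM) in replicate 1 and 1 UMI (3.80 CPM) in replicate 2, led by *Fcer1g* with 23 UMIs in replicate 1, with *Ptprc* and *Cd3e* at 0 in both, against 25.0 and 3.68 CPM in BEC. The 10 macrophage markers reached 111 and 53.1 CPM against 2.23 and 4.09 CPM in BEC, of which in LEC *Mrc1* gave 270 of 288 and 13 of 14 UMIs, and *Adgre1*, *Csf1r* and *Cd163* were at 0 in both. The 10 fibroblast markers summed to 110 and 30.4 CPM, led by *Dcn* with 252 and 5 UMIs, and to 46.9 and 17.1 CPM without the mixed cells, against 46.0 and 31.9 CPM in BEC. The 10 pericyte and smooth muscle markers summed to 323 and 118 CPM against 558 and 246 CPM in BEC, led by *Tagln* in replicate 1 and by *Kcnj8*, an LEC gene here, in replicate 2. The 9 epithelial markers were at 17.3 and 38.0 CPM in LEC and 133 and 299 CPM in BEC, where *Krt19* gave 1734 of 1849 and 258 of 731 UMIs. In LEC the 7 glial markers were at 6.16 and 0 CPM against 2.44 and 11.5 CPM in BEC. The 8 mesothelial markers had 2 and 0 UMIs in LEC against 28 and 25 in BEC. What part these transcripts had in the contrasts was not tested.

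Variation among LEC was measured per gene. Among 1418 genes with a mean of at least 0.1 UMIs in thinned LEC of both libraries, without the mixed cells, the median variance over mean was 1.03 and 1.06. Mitochondrial, ribosomal protein and sex-linked genes entered these medians but were left out of the ranking. By the smaller of its 2 values *Ccl21a* ranked highest of the others with 6.47 and 18.3, followed by *Malat1*, a nuclear noncoding RNA, with 5.88 and 12.6. *Igfbp5*, encoding an IGF-binding protein, reached 5.80 and 12.1, and *H19* 2.83 and 3.66. *Igfbp5* was found in 6.35% of these cells in replicate 1 and 7 of 100 in replicate 2 at a mean of 0.176 and 0.280 UMIs, so its UMIs lay in few cells. *Fos* reached 4.57 and 3.53 and *Klf2* 2.91 and 3.11, and *Junb*, *Jun*, *Fth1*, *Hspa1a*, *Hspb1* and *Tmsb4x* each exceeded 2 in both libraries. *Lyve1*, an identity gene that the rule did not use, was at 1.37 and 1.47, above the medians.

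The LEC of the libraries also differed from each other, and not always as their BEC did. *Ccl21a* had a log2 ratio of replicate 1 to replicate 2 of -1.43 in LEC and of 1.28 in BEC. *Flt4* was higher in LEC of replicate 1, with a log2 ratio of 1.04, and at -0.60 in BEC. *B2m* was lower in replicate 1 in both, at -1.63 in LEC and -1.57 in BEC. With 2 libraries these differences could not be tested.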

How the data were processed

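Droplet single-cell libraries of sorted PP endothelial cells were deposited as tables of UMI counts per gene and cell barcode, 1 control and 2 EC-iCOUPOE. Per the labels and file headers, the authors aligned reads to mm10 and counted UMIs with Cell Ranger 3.0.2, with version 3.1.0 in the header of EC-iCOUPOE replicate 1. The tables held 6080, 4959 and 1441 barcodes with 17341398, 17417260 and 3548983 UMIs in the control, replicate 1 and replicate 2. Kept barcodes had 500 or more genes, 1000 or more UMIs and no more than 10% of them mitochondrial.

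Counts were summed over LEC and over BEC of a library and scaled to CPM. A gene was compared where each library had at least 10 of its UMIs in LEC, or as many in BEC once scaled to the UMI total of the LEC, leaving out the 8 genes of the rule. Ratios with a count of 0 used 3 UMIs as the floor, and shares of 0 used 3 cells as the upper limit. Shares were taken after thinning each cell to 1000 UMIs. Leukocyte-gated and fibroblast-gated cells had at most 1 UMI of the 5 endothelial genes and at least 3 or 4 UMIs of 6 marker genes of their type. The genes named were those of the study's single-cell analysis, the rule and its markers, the 15 most raised and 15 most reduced, and members of lists. The members, lists and rules were chosen with earlier results of these data known. Scrublet in Scanpy 1.11.5 marked doublets, and none were removed. Python 3.11.15, NumPy 2.4.6, SciPy 1.17.1 and edgeR 4.0.16 (TMM only) were used. The rule of 2-fold in both libraries was also run on simulated counts with counting noise alone and changes larger than 2-fold. That simulation left out the spread between cells, so it does not show how the rule performs on these data. Intervals are 95% exact Poisson or Clopper-Pearson. Gene positions are from GENCODE vM21 (GRCm38, mm10) and promoter stretches from RefSeq (GRCm38.p6), in which 12 of 15 gene symbols looked up were matched. Alternatives were other thresholds, scalings, filters and sets of cells.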

Additional observations from a re-analysis of the deposited data

How the results depend on the processing

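Against 439 genes called higher and 351 lower, thinning all cells to equal depth gave 252 and 226 calls, a minimum of 30 UMIs 189 and 187, and a 4-fold limit 224 and 166, while a minimum of 1 UMI gave 938 and 549. With 1 EC-iCOUPOE library left out, the counts ranged from 659 to 1441 higher and from 609 to 1108 lower. A single library then sets both the ratio and the count minimum, and their parts in this change were not separated. The log2 ratio of *Nr2f2* lay between -0.82 and -0.31 in 12 settings and was called in none. Of the named genes, 130 to 190 could be compared in each of 13 settings, and none of those that were called changed direction; uncalled genes near equal levels could change sign. TMM scaling ended the call of *Gbp2* and added 8 calls, among them *Cd36*, *Icam2*, *Acta2* and *Tagln*. Removing the cells with a mixed profile, an alternative chosen after seeing the data, left 835 LEC in replicate 1, brought their share with *Lyve1* to 95.3% and with *Madcam1* to 0.599%, and added 7 calls, *Vcam1* among them. In replicate 1 it brought epithelial, fibroblast, glial, mesothelial and pericyte markers to 12.6, 46.9, 3.38, 0.0 and 218 CPM. Shares without thinning, also added later, were 91.5 and 78.5% for *Nr2f2*, 98.6 and 97.2% for *Lyve1* and 7.97% for *Madcam1* in replicate 1. No paired test was run, and each ratio of LEC to BEC was itself taken within a library. With 107 LEC, replicate 2 limits the genes that could be compared.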
